A study of Mus musculus with 12 samples.

Results

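The pyramidal neurons of the hippocampus are arranged in the fields CA1, CA2 and CA3, and 10 genes that mark these fields were followed through hippocampal RNA from 4 mouse genotypes. The genes were taken by symbol from the 55385 genes of the deposited count table: Fibcd1, Wfs1, Mpped1 and Pou3f1 for CA1, Rgs14, Amigo2 and Pcp4 for CA2, and Iyd, Bok and Nptx1 for CA3. Each of the 10 symbols matched 1 row, and all 10 genes passed the filter on low counts that left 15905 genes for testing.

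CA3 neurons receive mossy fibre input from the dentate gyrus and project to CA1, which carries the main output of the hippocampus. CA2 lies between them and is known for a resistance to long-term potentiation and for its part in social memory. The fields differ in gene expression, so that some transcripts are dense in 1 field and sparse in its neighbours; several of the markers are also expressed elsewhere in the brain, such as Wfs1 and Rgs14 outside the hippocampus and Pcp4 in the dentate gyrus.

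The study asked what KChIP3, the calcium-binding protein encoded by Kcnip3 and also known as DREAM, does in a mouse model of Alzheimer's disease. Adult animals of 4 genotypes gave 3 libraries each: WT, Kcnip3 KO (Kcnip3-/-), 5xFAD, and Kcnip3 KO-5xFAD, which carries both. 5xFAD mice carry mutant human transgenes of familial Alzheimer's disease driven by neuronal Thy1 sequences. RNA was taken with Trizol from fresh hippocampus of 1 hemisphere, the other having gone to proteomics, and TruSeq mRNA libraries were sequenced. No treatment, sex or exact age is given in the sources used here. The labels do not say that the libraries of a genotype came from separate mice, and p-values measure only the spread between these libraries.

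The libraries held 7664407 to 11310714 counts, and a count of 3 corresponded to 0.272 to 0.425 CPM. CPM here means counts per 1e+06 counts of the library after TMM scaling, in which the edgeR package corrects library sizes for differences in composition. Such limits cover counting error only. Kcnip3 itself measured 158 to 162 CPM in WT, 138 to 156 in 5xFAD, 68.7 to 84.9 in Kcnip3 KO-5xFAD, and 71.4, 63.4 and 125 in Kcnip3 KO 1, 2 and 3. The value of Kcnip3 KO 3 lay nearer to the 5xFAD values than to those of the other libraries labelled as knockout. Thy1 measured 2592 to 4236 CPM in 5xFAD and in Kcnip3 KO-5xFAD 1 and 3, and 747 to 887 in Kcnip3 KO and in WT 1 and 2. The libraries labelled WT 3, at 2277 CPM, and Kcnip3 KO-5xFAD 2, at 926 CPM, went against their labels in this gene. The labelled groups were kept, and results that rest on these 2 libraries are also given without both, under the name of the 2 mismatched libraries. Each neuronal list was detected in every library: no gene of the pan-pyramidal list (8 genes, among them Slc17a7 and Camk2a) or of the dentate granule list (8 genes, among them Prox1) was at 0 anywhere.

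All 10 markers were detected in every library, and their levels differed widely between genes. On the authors' deposited TPM scale, which allows for gene length, Pcp4 had the highest level at 478 ± 127 TPM (mean ± SD over the 12 libraries). Nptx1 followed at 259 ± 52.7 TPM, Mpped1 at 201 ± 29.9, Wfs1 at 159 ± 23.6, Bok at 122 ± 26.2, Fibcd1 at 110 ± 35.0 and Rgs14 at 90.2 ± 19.3. Pou3f1 at 29.4 ± 6.94 TPM, Amigo2 at 21.4 ± 3.48 and Iyd at 5.15 ± 2.23 were the least abundant. Neighbours in this order overlapped within 1 SD, except between Pcp4 and Nptx1, between Rgs14 and Pou3f1, and between Amigo2 and Iyd. The order did not follow the fields, since each field had a member among the 3 highest and a member among the 3 lowest. The deposited log2 values were taken out of the log as they stood. Any constant added before the log was not removed and would weigh most on Iyd.

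The markers differed in how steady they were between libraries. The highest library stood above the lowest by a ratio of 1.41 in CPM for Mpped1 and 1.57 for Wfs1, both of CA1. The same ratio was 3.59 for Fibcd1 and 2.69 for Pou3f1, also of CA1. It was 2.22 for Rgs14, 1.99 for Amigo2 and 2.29 for Pcp4 of CA2, and 1.99 for Nptx1, 2.47 for Bok and 4.2 for Iyd of CA3. Part of the width for Iyd is counting error, since its counts ran from 9 to 53 per library. The average within-genotype SD of log2 CPM was 0.41 for Fibcd1, above 84.1% of tested genes, and 0.15 for Mpped1, above 31.1%.

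The promoters of 3 markers are shown because KChIP3 binds DNA at the downstream regulatory element, whose core is GTCA. Fibcd1 had the largest difference between 5xFAD and WT among the markers, and Bok and Amigo2 were the markers whose 5xFAD and WT libraries did not overlap. The windows are the 250 bases before the RefSeq start on GRCm38.p6, written 5′ to 3′ on the gene's strand, with GTCA or its complement TGAC in capitals. They lie at chr2:31846006-31846255 (minus strand) for Fibcd1, chr1:93685325-93685574 (plus strand) for Bok and chr15:97247288-97247537 (minus strand) for Amigo2.

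Fibcd1: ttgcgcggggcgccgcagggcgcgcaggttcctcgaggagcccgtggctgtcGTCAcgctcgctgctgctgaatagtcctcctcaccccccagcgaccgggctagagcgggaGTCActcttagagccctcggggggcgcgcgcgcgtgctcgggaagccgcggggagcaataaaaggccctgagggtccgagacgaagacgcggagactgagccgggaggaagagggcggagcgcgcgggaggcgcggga
Bok: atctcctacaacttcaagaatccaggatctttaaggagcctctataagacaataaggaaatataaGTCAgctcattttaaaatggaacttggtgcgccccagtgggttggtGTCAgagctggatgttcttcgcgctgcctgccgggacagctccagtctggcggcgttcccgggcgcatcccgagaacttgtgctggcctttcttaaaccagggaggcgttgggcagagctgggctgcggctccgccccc
Amigo2: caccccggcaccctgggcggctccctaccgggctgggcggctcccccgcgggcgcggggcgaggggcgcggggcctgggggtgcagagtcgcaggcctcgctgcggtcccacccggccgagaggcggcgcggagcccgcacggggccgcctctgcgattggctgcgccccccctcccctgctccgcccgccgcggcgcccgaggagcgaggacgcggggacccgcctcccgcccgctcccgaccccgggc

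Fibcd1 and Bok each held 2 copies of the core and Amigo2 held 0, and the GC contents of the windows were 71.6%, 55.2% and 84%. Promoters of 7 of the 10 markers were matched. Among the others, Pcp4 held 3 copies and Iyd 2, while the windows of Wfs1 and both windows of Mpped1 held 0. A core of 4 bases is common: 80.2% of all 32851 windows of this length held GTCA on either strand, with a median of 2 copies. The cyclic AMP response element TGACGTCA, which contains the core, was in 1.55% of all windows and in 0 of those matched here. A match is a run of letters and was not tested as a binding site, and the bases after the start were not searched.

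**Figure D1:**
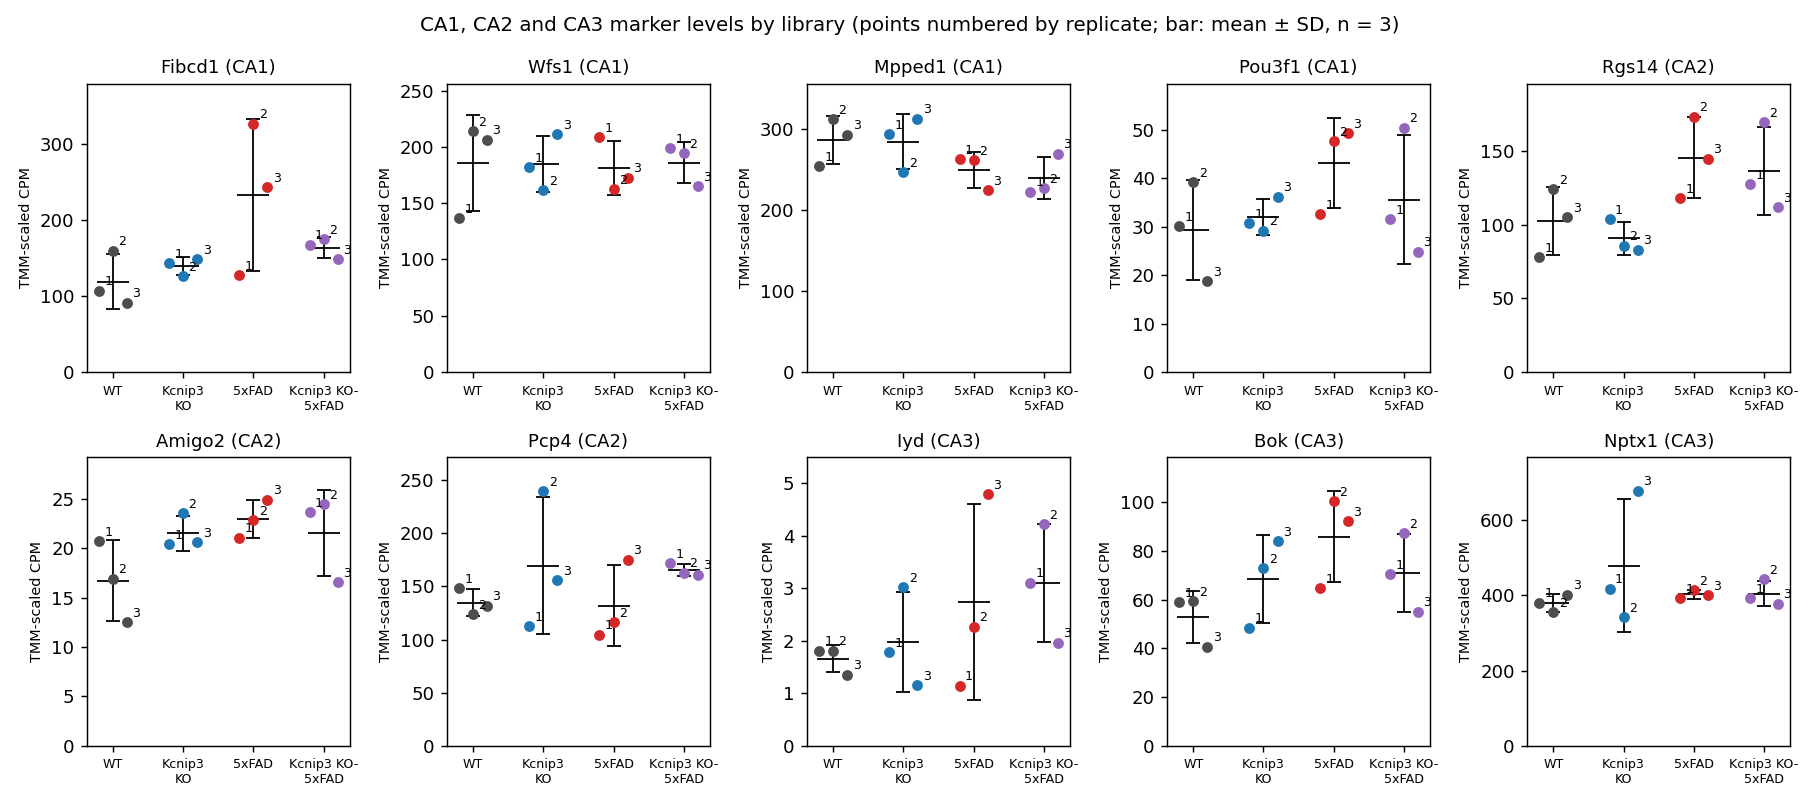
TMM-scaled CPM (vertical axes, from 0) of the 10 markers in the 4 genotypes; points are single libraries numbered by replicate, and bars give the mean ± SD of 3 libraries. For Fibcd1 and Bok the 5xFAD 2 library is the highest point of the panel, while Wfs1 has similar means in all 4 genotypes.

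5xFAD was compared with WT to ask what the transgenes change in mice with intact Kcnip3. Among the 10 markers, 0 passed an adjusted p of 0.05, against 3.53% of all 15905 genes tested (edgeR quasi-likelihood test with Benjamini-Hochberg adjustment). At an unadjusted p under 0.05 there were 4 markers, Fibcd1, Rgs14, Amigo2 and Bok, against 25.3% of all genes. DESeq2 called 2 of them, Fibcd1 and Bok, and 10.4% of the genes it gave an adjusted p, while limma-voom called 0 markers and 3.57% of all genes. Mean levels were above WT for 7 markers and below for 3, and the median log2 fold change of the markers was 0.48, against 0.01 over all genes tested. That median was 0.24 without 5xFAD 3 and 0.30 without the library labelled WT 3. In bulk RNA, fewer cells of a type and less RNA per cell cannot be told apart.

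Fibcd1 (ENSMUSG00000026841, chr2:31813290-31846005, minus strand) encodes a membrane receptor that binds acetyl groups and chitin, and marks dorsal CA1. It measured 107, 160 and 91.2 CPM in WT 1, WT 2 and the library labelled WT 3, and 128, 327 and 243 CPM in 5xFAD 1, 2 and 3. The 2 highest of all 12 values were those of 5xFAD 2 and 3, while 5xFAD 1 lay within the WT range. The means were 119 ± 35.8 and 233 ± 100.2 CPM (SD, n = 3), and the log2 fold change was 0.96 ± 0.29 (SE) with an edgeR adjusted p of 0.084. Without 5xFAD 2 the log2 fold change was 0.63, and without 5xFAD 1 it was 1.26 with an adjusted p of 0.00649 (range over 24 alternative settings 1.08e-13 to 0.675). Without the 2 mismatched libraries it was 0.80. In Kcnip3 KO the values were 143, 126 and 149 CPM, and in Kcnip3 KO-5xFAD they were 168, 175 and 149 CPM, with less spread than in WT and 5xFAD.

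Pou3f1 (ENSMUSG00000090125, chr4:124656807-124660655, plus strand) encodes a POU-domain transcription factor of CA1 and of some cortical neurons. The WT libraries measured 30.1, 39.1 and 18.7 CPM, the third value being that of the library labelled WT 3, and 5xFAD measured 32.5, 47.6 and 49.3 CPM. The groups overlapped, again through 5xFAD 1. The log2 fold change was 0.56 ± 0.29 (edgeR adjusted p = 0.249) and 0.32 without the 2 mismatched libraries. Kcnip3 KO measured 30.6, 29.1 and 36.1 CPM. Kcnip3 KO-5xFAD measured 31.5 and 24.8 CPM in libraries 1 and 3, and 50.3, the highest value of the gene, in the library labelled Kcnip3 KO-5xFAD 2. Pou3f1 overlaps Gm2164 on the other strand, which had at most 1.36 CPM.

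The other CA1 markers showed no such spread. Wfs1 (ENSMUSG00000039474, chr5:36966104-36989205, minus strand), which encodes the endoplasmic reticulum membrane protein wolframin, ran from 137 CPM in WT 1 to 214 in WT 2, so that the WT group alone spanned its whole range. Its 5xFAD mean was 181 ± 24.2 CPM against 186 ± 42.6 in WT, with a log2 fold change of -0.04 and a 95% interval of -0.38 to 0.31. Mpped1 (ENSMUSG00000041708, chr15:83779467-83858494, plus strand), a metallophosphoesterase-domain gene, measured 254, 312 and 293 CPM in WT, against 263, 262 and 224 for 5xFAD. The 5xFAD values reached lower but overlapped WT, at a log2 fold change of -0.20 ± 0.12 (edgeR adjusted p = 0.311). The CA1 markers therefore did not move as 1 group: the log2 fold changes of the 4 genes ran from -0.20 to 0.96, with 2 above and 2 below 0.

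Rgs14 (ENSMUSG00000052087, chr13:55369732-55384687, plus strand) encodes a regulator of G-protein signalling that limits synaptic plasticity in CA2. WT measured 77.9, 124 and 105 CPM and 5xFAD measured 118, 173 and 145 CPM. The highest 5xFAD values stood above all WT values, and 5xFAD 1 lay below WT 2. The log2 fold change was 0.51 ± 0.19 (edgeR adjusted p = 0.129), 0.34 without WT 1 and 0.53 without the 2 mismatched libraries.

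Amigo2 (ENSMUSG00000048218, chr15:97244125-97247287, minus strand) encodes a leucine-rich repeat adhesion molecule that marks CA2. It measured 20.7 and 16.9 CPM in WT 1 and 2, 12.5 in the library labelled WT 3, and 21.1, 22.8 and 24.9 CPM in 5xFAD. The groups did not overlap, as for 27.6% of all genes tested, but the lowest 5xFAD value and WT 1 lay close together. The log2 fold change was 0.46 ± 0.18 (edgeR adjusted p = 0.139), and without the 2 mismatched libraries it was 0.29. Pced1b overlaps Amigo2 on the other strand, only over chr15:97247107-97247287, and had 6.26 CPM or more in every library. The strand setting of the counting is not given in the sources used here, so reads of the overlap could belong to either gene.

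Pcp4 (ENSMUSG00000090223, chr16:96467606-96525793, plus strand) encodes PEP-19, a small calmodulin regulator that is abundant in CA2. WT measured 148, 124 and 132 CPM, against 105, 116 and 175 CPM for 5xFAD. The 5xFAD libraries lay on both sides of the WT range, and the log2 fold change was -0.03 with a 95% interval of -0.56 to 0.50. An entry of Igsf5 (chr16:96361794-96525580) overlaps Pcp4 on the same strand and had at most 0.106 CPM. Strand cannot separate reads that fall on bases of both genes.

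Bok (ENSMUSG00000026278, chr1:93685660-93695764, plus strand) encodes a BCL2-family protein enriched in CA3 neurons. WT measured 58.9, 59.3 and 40.6 CPM, the third value being that of the library labelled WT 3, and 5xFAD measured 64.8, 100.4 and 92.3 CPM. Bok was the other marker without overlap, and 5xFAD 1 was the value nearest to WT. The log2 fold change was 0.70 ± 0.24 (edgeR adjusted p = 0.106). It was 0.54 without the 2 mismatched libraries, and 0.86 without 5xFAD 1. A spline correction for transcript length and GC content brought it to 0.42 and that of Rgs14 to 0.38, while Fibcd1 kept 0.91.

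Iyd (ENSMUSG00000019762, chr10:3540240-3554877, plus strand) encodes iodotyrosine deiodinase, an enzyme that salvages iodide in the thyroid and whose transcript marks CA3 in the brain. The WT libraries measured 1.81, 1.81 and 1.36 CPM, against 1.14, 2.27 and 4.80 CPM for 5xFAD. The 5xFAD group held both the lowest and the highest value of the gene. The log2 fold change of 0.77 ± 0.48 (edgeR adjusted p = 0.326) was 0.03 without 5xFAD 3.

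Nptx1 (ENSMUSG00000025582, chr11:119538719-119547753, minus strand) encodes a secreted pentraxin that clusters AMPA receptors at synapses. WT measured 380, 355 and 402 CPM and 5xFAD measured 392, 414 and 401 CPM. The ranges overlapped, and the log2 fold change was 0.09 with a 95% interval of -0.31 to 0.49; it was -0.05 from the deposited log2 TPM.

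**Figure D2:**
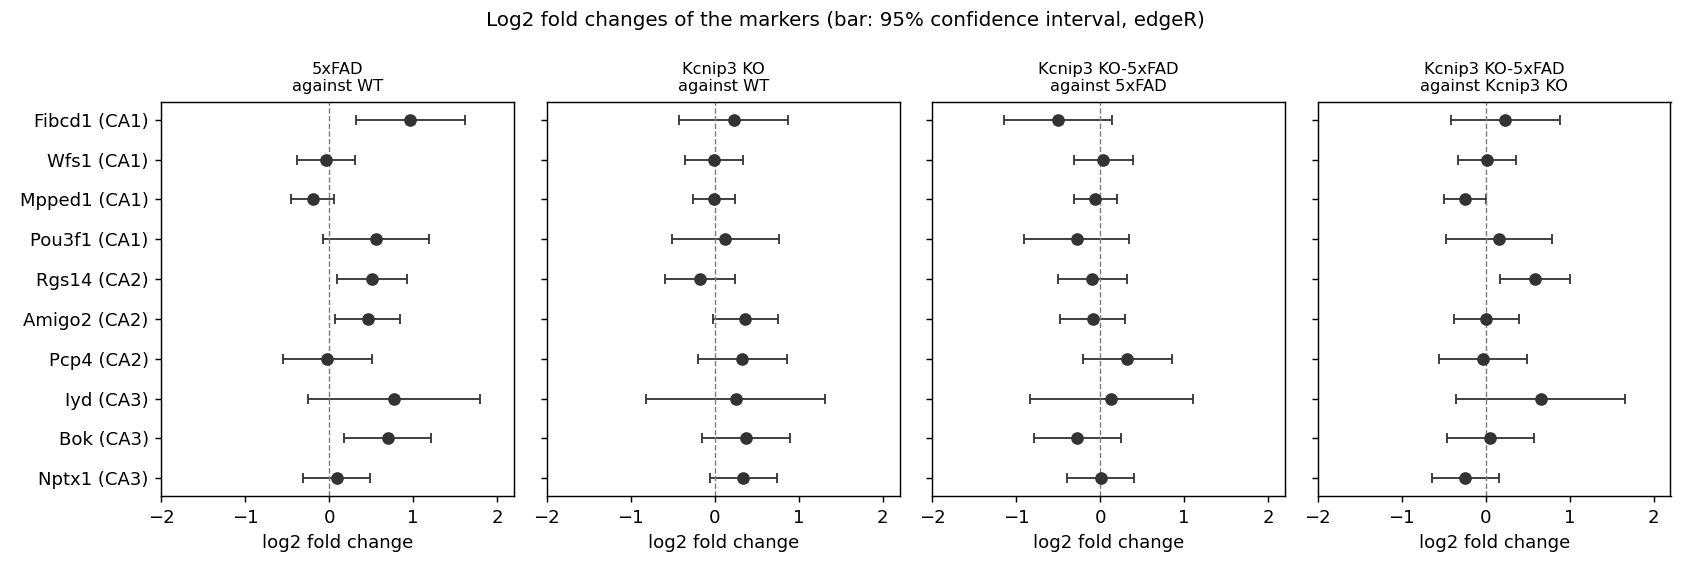
Log2 fold changes (horizontal axes) of the 10 markers in the pairwise comparisons, with 95% confidence intervals from edgeR. The intervals are not adjusted for the number of genes. In 5xFAD against WT the intervals of Fibcd1, Rgs14, Amigo2 and Bok lie above 0, and 0 of 10 markers had an adjusted p under 0.05 in any panel.

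Kcnip3 KO was compared with WT to ask what loss of KChIP3 changes without the transgenes. Among the markers 0 passed an adjusted p of 0.05, against 0.0503% of all genes, 0 had an unadjusted p under 0.05 (4.51%), and 0 had groups without overlap (9.46%). DESeq2 also called 0 (0.182% of its genes), and the edgeR adjusted p was 0.999 for all 10. The median log2 fold change was 0.24, against 0.00 over all genes, with 7 markers above and 3 below 0. It was 0.10 without the library labelled WT 3, 0.10 without Kcnip3 KO 3 and 0.14 without Kcnip3 KO 2. Amigo2 measured 20.4, 23.6 and 20.6 CPM in Kcnip3 KO, at a log2 fold change of 0.36 ± 0.18. Bok measured 48.5, 72.8 and 84.0 CPM, at 0.37 ± 0.24. Both groups overlapped WT, and without the 2 mismatched libraries the log2 fold changes were 0.19 and 0.21.

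In 3 markers the difference in means rested on a single Kcnip3 KO library. Nptx1 measured 418 and 342 CPM in Kcnip3 KO 1 and 2 and 679 in Kcnip3 KO 3, the library with the highest Kcnip3 level of its group. Its log2 fold change of 0.34 ± 0.19 was 0.00 without Kcnip3 KO 3. Pcp4 measured 113, 239 and 156 CPM in Kcnip3 KO 1, 2 and 3, and its log2 fold change of 0.33 ± 0.24 was 0.00 without Kcnip3 KO 2. Iyd measured 1.78, 3.02 and 1.15 CPM, and its log2 fold change of 0.25 ± 0.50 was -0.17 without Kcnip3 KO 2. Kcnip3 KO 2 was thus the high library for Pcp4 and Iyd, while it held the lowest of the 12 values of Nptx1.

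Kcnip3 KO 2 also held the highest sums of 2 lists of other cells. The 6 thalamic genes, among them Prkcd and Ramp3, summed to 338 CPM there, 84.2 in Kcnip3 KO 1 and 235 in Kcnip3 KO 3, against 83.5 to 190.03 CPM in WT. Their means were above WT for 6 of 6, with 0 called and a median log2 fold change of 0.69, and no gene of the list was at 0 in any library. The 7 genes of oligodendrocytes and their precursors summed to 8121 CPM in Kcnip3 KO 2, 4240.4 in Kcnip3 KO 1 and 5595 in Kcnip3 KO 3, against 3183 to 5343 CPM in WT, with 0 called. Their part in the levels of Pcp4 and Iyd was not tested.

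Kcnip3 KO-5xFAD was compared with 5xFAD to ask what loss of KChIP3 changes in the presence of the transgenes. Again 0 of 10 markers passed an adjusted p of 0.05 (0.0692% of all genes), 0 had an unadjusted p under 0.05 (10.4%) and 0 had groups without overlap (16.3%); DESeq2 called 0 as well (0.182% of its genes). The median log2 fold change was -0.07, with 6 markers below 0, and it ran from -0.19 without 5xFAD 1 to 0.04 without Kcnip3 KO-5xFAD 3. Fibcd1 had the lowest log2 fold change, -0.50 ± 0.29 (edgeR adjusted p = 0.561), and it was -0.18 without 5xFAD 2. Those of Pou3f1 and Bok moved from -0.28 and -0.27 to -0.62 and -0.45 without the 2 mismatched libraries. The Bok libraries of Kcnip3 KO-5xFAD measured 70.5, 87.2 and 55.0 CPM, with the second value from the library labelled Kcnip3 KO-5xFAD 2, and overlapped 5xFAD. For Wfs1 the 95% interval was -0.31 to 0.38 and for Nptx1 -0.39 to 0.41.

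Kcnip3 KO-5xFAD was also set against Kcnip3 KO, the effect of the transgenes without KChIP3. The adjusted p was under 0.05 for 0 of 10 markers in edgeR and in DESeq2, and for 0% of all genes in edgeR and 0.866% in DESeq2. Rgs14 alone had an unadjusted p under 0.05, as had 10.4% of all genes. It measured 104, 85.8 and 83.0 CPM in Kcnip3 KO and 127, 169 and 112 CPM in Kcnip3 KO-5xFAD, where 169 belongs to the library labelled Kcnip3 KO-5xFAD 2. The groups did not overlap, and the log2 fold change was 0.58 ± 0.19 (edgeR adjusted p = 0.327). Without the 2 mismatched libraries it was 0.40. Fibcd1 was the other marker without overlap (15.6% of all genes), at 0.23 ± 0.29.

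Over all 10 markers the median log2 fold change was 0.03, with 7 above and 3 below 0. It ran from -0.07 without the library labelled Kcnip3 KO-5xFAD 2 to 0.18 without Kcnip3 KO-5xFAD 3. Iyd measured 1.78, 3.02 and 1.15 CPM in Kcnip3 KO and 3.10, 4.22 and 1.96 CPM in Kcnip3 KO-5xFAD, at 0.65 ± 0.47. Mpped1 measured 294, 247 and 313 CPM in Kcnip3 KO and 223, 227 and 270 CPM in Kcnip3 KO-5xFAD, at -0.25 ± 0.12 (edgeR adjusted p = 0.493). The libraries overlapped here, as they did between 5xFAD and WT.

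The interaction tests whether the transgene effect differed with and without Kcnip3. It was called for 0 of 10 markers, in edgeR and in DESeq2, and for 0% of all genes in edgeR and 0.0377% in DESeq2, and 0 markers had an unadjusted p under 0.05 (5.26% of all genes). The interaction was -0.73 ± 0.41 for Fibcd1, -0.64 ± 0.34 for Bok and -0.45 ± 0.26 for Amigo2, each with an edgeR adjusted p of 0.853. Without the 2 mismatched libraries these 3 values were -0.62, -0.66 and -0.38, and without 5xFAD 2 that of Fibcd1 was -0.41. It was 0.08 ± 0.27 for Rgs14, whose transgene effect was 0.51 with Kcnip3 and 0.58 in its absence. When the 2 mismatched libraries were left out, this interaction was -0.13. The value was below 0 for 8 of 10 markers, with a median of -0.22, against -0.01 over all genes. With library size as the only scaling it was below 0 for 6, with a median of -0.16, against 0.05 over all genes. From log2 TPM it was below 0 for 5, with a median of -0.08, against 0.07 over all genes. Leaving out 1 library moved the median from -0.41 (without 5xFAD 1, and likewise without the library labelled Kcnip3 KO-5xFAD 2) to -0.12 (without the library labelled WT 3). The 5 contrasts share libraries, WT or 5xFAD or Kcnip3 KO entering more than 1 of them, so their values are not independent of each other.

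The libraries 5xFAD 2, 5xFAD 3 and the one labelled Kcnip3 KO-5xFAD 2 were the highest 3 of 12 for 4 of the 10 markers, Fibcd1, Pou3f1, Rgs14 and Bok. The same 3 libraries were the highest for 4.72% of all genes tested; the set was chosen after its values were seen. For Amigo2 and Iyd the highest 3 were 5xFAD 3, Kcnip3 KO-5xFAD 1 and the library labelled Kcnip3 KO-5xFAD 2, which were at the same time the lowest 3 for Mpped1. At the lower end, the library labelled WT 3 held the lowest value of Fibcd1, Pou3f1, Amigo2 and Bok. For Fibcd1, Pou3f1, Rgs14 and Bok, 5xFAD 1 was the lowest of the 3 5xFAD libraries.

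**Figure D3:**
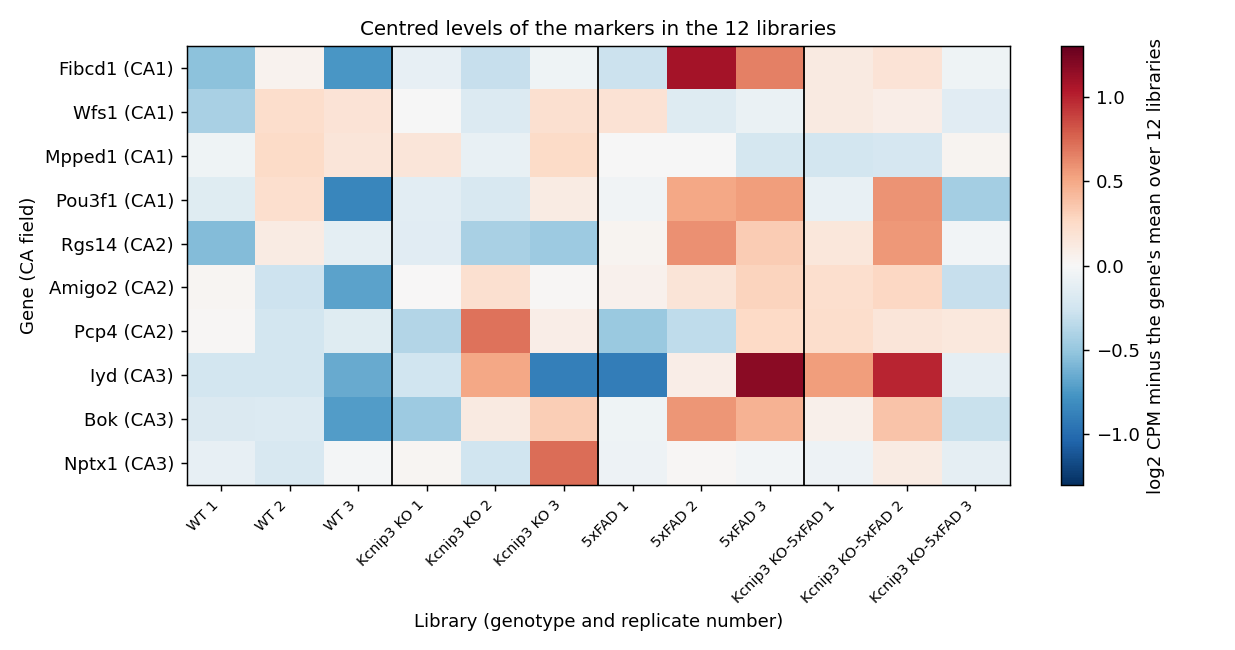
Log2 CPM of each marker minus its mean over the 12 libraries, by gene (rows) and library (columns, in genotype order separated by lines); red is above and blue below the gene's mean. Fibcd1, Pou3f1, Rgs14 and Bok are red in 5xFAD 2, 5xFAD 3 and the library labelled Kcnip3 KO-5xFAD 2, and Mpped1 shows small values throughout.

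Across the 12 libraries, the correlations of log2 CPM between markers varied within and between fields. Pearson's r was 0.85 between Pou3f1 of CA1 and Bok of CA3, 0.80 between Fibcd1 and Pou3f1, 0.80 between Amigo2 and Bok, and 0.75 between Fibcd1 and Rgs14. It was -0.10 between Fibcd1 and Wfs1 and -0.32 between Fibcd1 and Mpped1, all CA1 markers. Within CA2 it ran from -0.23 for Rgs14 and Pcp4 to 0.34 for Amigo2 and Pcp4, and within CA3 from -0.30 for Iyd and Nptx1 to 0.53 for Iyd and Bok. The lowest value was -0.815 between Mpped1 and Iyd. These are descriptions over 12 libraries of 4 genotypes, which share library depth and composition.

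The genes whose levels most resembled a marker were listed for 1 marker per field, among 15428 genes with a mean of at least 1 CPM. For Fibcd1 they were Gm26644 (r = 0.98), Lrrn2 (0.955) and Pop7 (0.953). For Rgs14 they were Ccdc74a (0.94), Ip6k2 (0.94) and Tbata (0.94). For Iyd they were Fam163b (0.88), Prr22 (0.87) and Apeh (0.86).

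Other values differed in the same libraries. The summed level of 7 genes of neocortical layers, among them Rorb, Cux2 and Lamp5, was 247, 238 and 252 CPM in 5xFAD 2, 5xFAD 3 and the library labelled Kcnip3 KO-5xFAD 2, the lowest 3 of 12, and 266 to 415 CPM in the others. Weighted equally, as the mean over genes of log2 CPM centred by gene, the list was at -0.46, -0.62 and -0.32 in these 3 libraries. By that measure Kcnip3 KO-5xFAD 1, at -0.44, lay below the library labelled Kcnip3 KO-5xFAD 2. In 5xFAD against WT, 6 of these 7 genes had means below WT and 1, Rorb, fell, by 0.85 on the log2 scale (edgeR adjusted p = 0.0284); the call was lost in 8 of 24 alternative settings, with an adjusted p of up to 0.19. No gene of the list was at 0 in any library. The pan-pyramidal list summed to 9040, 7240 and 7769 CPM in those 3 libraries and to 5311 to 7059 CPM in the other 9. This separation did not hold with the genes weighted equally. The values there were 0.28, 0.03 and 0.19, and Kcnip3 KO 3 (0.25) and WT 2 (0.18) lay above 5xFAD 3. The dentate granule list summed to 281, 310 and 402 CPM in the same 3 libraries and to 245 to 319 CPM elsewhere.

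The choroid plexus list, 7 genes of the epithelium next to the hippocampus, summed to 104 CPM in the library labelled WT 3, 222 in 5xFAD 2, 372 in Kcnip3 KO-5xFAD 1 and 408 in the library labelled Kcnip3 KO-5xFAD 2, against 3014 to 8994 CPM in the other 8 libraries. The highest sum was that of 5xFAD 3. The GC content of transcripts weighted by counts was highest in 5xFAD 2, at 52.18%, and 5xFAD 3, at 51.88%, and ran from 50.92% to 51.63% in the others. With the length and GC correction the log2 fold changes of Fibcd1, Pou3f1, Rgs14 and Bok in 5xFAD against WT were 0.91, 0.48, 0.38 and 0.42. The part of the neocortical, dentate and choroid plexus values in the marker levels was not tested.

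**Figure D4:**
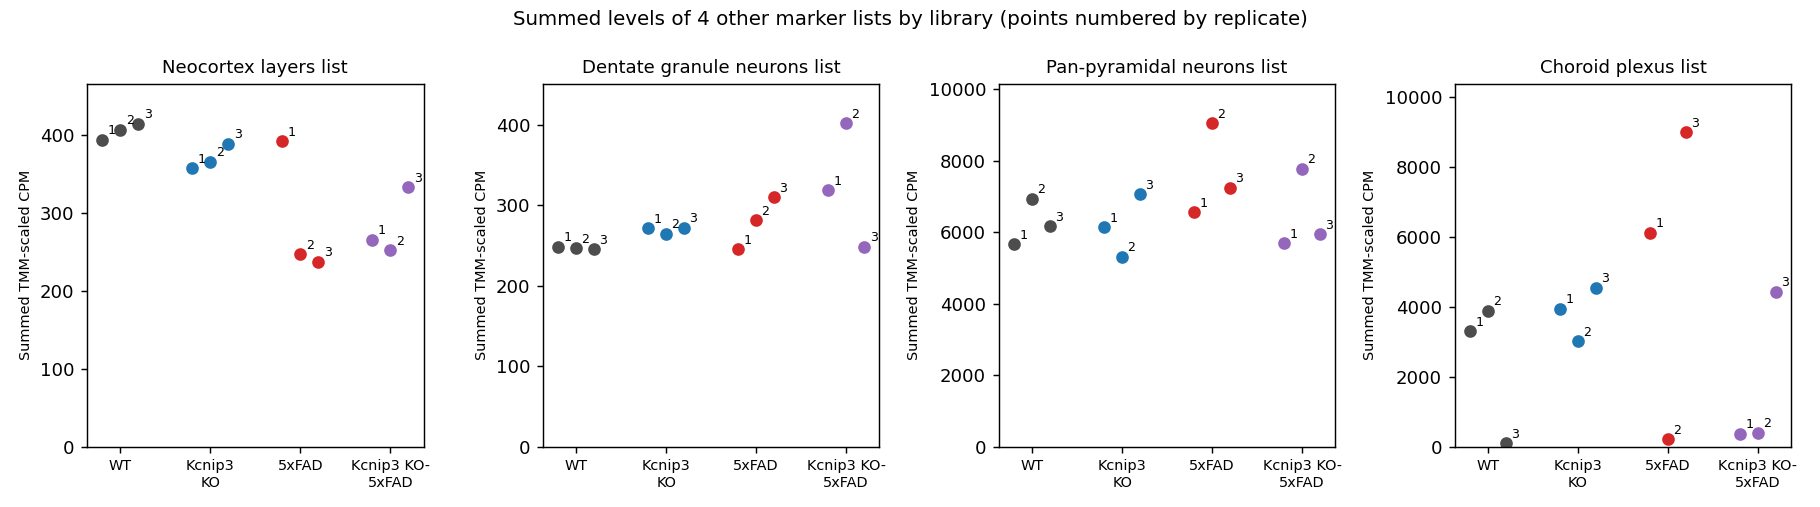
Summed TMM-scaled CPM (vertical axes, from 0) of 4 other marker lists by genotype; points are single libraries numbered by replicate. The neocortical sum is lowest in 5xFAD 2, 5xFAD 3 and the library labelled Kcnip3 KO-5xFAD 2, and the choroid plexus sum is near 0 in 4 libraries of 3 genotypes.

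A further 21 markers of the same fields were examined, of which 20 passed the filter on low counts and Avpr1b did not. In 5xFAD against WT 1 rose and 1 fell, both of the CA3 list, against 1.91% of all genes called higher and 1.62% called lower, with 10 means above and 10 below WT and a median log2 fold change of 0.03. An edgeR unadjusted p under 0.05 was found for 10 of the 20, against 25.3% of all genes. Groups without overlap were found for 5 above and 4 below WT, against 27.6% of all genes in either direction. Grik4, a kainate receptor subunit of CA3, measured 48.4, 50.5 and 40.3 CPM in WT, the third value being that of the library labelled WT 3, and 59.7, 86.5 and 73.2 CPM in 5xFAD. All 5xFAD values stood above WT, and Grik4 rose by a log2 fold change of 0.65 ± 0.17 (edgeR adjusted p = 0.0489). The call was lost in 14 of 24 alternative settings (adjusted p 1.59e-05 to 0.502), among them the one without the 2 mismatched libraries, where the log2 fold change was 0.56.

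Elavl2, a neuronal RNA-binding protein, measured 26.5, 23.6 and 33.7 CPM in WT, against 20.7, 13.8 and 16.1 CPM for 5xFAD. No library overlapped, and Elavl2 fell by 0.73 ± 0.16 on the log2 scale (edgeR adjusted p = 0.0363). This call was lost in 10 of 24 alternative settings (adjusted p 0.000384 to 0.379); the log2 fold change was -0.39 with the length and GC correction and -0.57 without the 2 mismatched libraries.

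Among the further CA1 markers, Spink8, a protease inhibitor of the Kazal type, had means of 14.2 CPM in WT and 30.4 in 5xFAD (log2 fold change 1.09 ± 0.33, adjusted p = 0.0771). Of the further CA2 markers, Necab2, a neuronal calcium-binding protein, had a log2 fold change of 0.42 ± 0.18 (adjusted p = 0.167), and Ptpn5, the striatal-enriched phosphatase STEP, one of -0.25 ± 0.12 (adjusted p = 0.193).

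In the other comparisons 0 of the 20 further markers passed the test, and the genes named here are among those with the smallest p in each list. In Kcnip3 KO against WT, the log2 fold change was 0.60 ± 0.17 for Gpr161, an orphan G-protein-coupled receptor, with an edgeR adjusted p of 0.775. Values at an adjusted p of 0.999 were 0.41 ± 0.17 for Grik4, 0.35 ± 0.36 for Homer3, 0.23 ± 0.20 for Stard5 and -0.45 ± 0.54 for Ntf3. For Grik4 this places the Kcnip3 KO libraries, at 52.3, 58.2 and 74.6 CPM, above all 3 WT libraries.

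In Kcnip3 KO-5xFAD against 5xFAD, Cacng5, an auxiliary subunit of AMPA receptors, had means of 27.0 and 11.2 CPM without overlap, at a log2 fold change of 1.25 ± 0.36 (edgeR adjusted p = 0.426). Elavl2 had means of 25.6 and 16.9 CPM, also without overlap, at 0.60 ± 0.17 (adjusted p = 0.411). Of all genes, 16.3% had no overlap between these 2 groups. Plagl1, Spink8, Man1a and Sostdc1 ran from -1.15 for Sostdc1 to 0.98 for Plagl1. Against Kcnip3 KO, Cacng5 again had no overlap, with means of 27.0 and 13.8 CPM (log2 fold change 0.98 ± 0.35, adjusted p = 0.371). In that comparison 9 of the 20 further markers had means above Kcnip3 KO and 11 below. Without overlap were 2 above and 2 below, against 15.6% of all genes. Nectin3 was at 0.26 ± 0.14, while Ptpn5, Dkk3 and Tyro3 were at -0.26 ± 0.12, -0.28 ± 0.13 and -0.30 ± 0.16. The largest interactions among the named genes were 1.48 ± 0.50 for Cacng5 and -0.84 ± 0.46 for Spink8, each at an adjusted p of 0.853.

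Of the 12 lists for other cell classes and regions, 2 held called genes in 5xFAD against WT. They were the neocortical list, with Rorb, and the microglial list, in which 6 of 7 genes rose, against 1.91% of all genes called higher. Among the latter were Cx3cr1, the fractalkine receptor, by a log2 fold change of 1.02 and Tmem119, a microglial membrane protein, by 0.65. These calls were lost in 6 and 8 of 24 alternative settings, with adjusted p-values of up to 0.146 and 0.141.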

How the data were processed

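The libraries were TruSeq mRNA libraries of hippocampal RNA, 3 per genotype. Per the submitters' processing notes, the authors used FastQC 0.11.9, HISAT2 2.1.0 on mm10, featureCounts, R 4.2.1 and edgeR 3.38.4; for the annotation release, strand setting and featureCounts version the entry is: not given in the sources used here. Deposited by the authors were raw read counts for 55385 genes, used for every test, and log2 TPM for 16120 genes, used for levels between genes and as an alternative. Symbols came from GENCODE M21 (GRCm38) and promoters from RefSeq.

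A single model of the 12 libraries was fitted with edgeR 4.0.16 (R 4.3.3; TMM scaling, filterByExpr, robust quasi-likelihood test, Benjamini-Hochberg adjustment over 15905 genes, called at an adjusted p under 0.05), with 5 contrasts. Levels are TMM-scaled CPM, and log2 fold changes are ± SE. The scripts were tested on simulated data. The markers, the 18 lists and the alternatives were chosen with earlier results of these data known. The text names all 10 markers, the called genes of the further CA lists (or, where a list has none, the 2 with the smallest p), up to 2 called genes of other lists, and the 3 genes most correlated with Fibcd1, Rgs14 and Iyd; 1 gene that the rule selects is not reported here.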

Additional observations from a re-analysis of the deposited data

How the results depend on the processing

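Of the 10 markers, 0 were called in each of the 5 contrasts, and the alternatives changed this count as follows. In 5xFAD against WT it was 4 with no filter on low counts (Fibcd1, Pou3f1, Rgs14 and Bok), 2 with DESeq2 1.42.0 (Fibcd1 and Bok), and 0 to 2 when 1 library was left out, the 2 without 5xFAD 1 being Fibcd1 and Bok. With no filter it was 1 in Kcnip3 KO-5xFAD against 5xFAD (Fibcd1), 1 in Kcnip3 KO-5xFAD against Kcnip3 KO (Rgs14) and 2 in the interaction (Fibcd1 and Bok). The cause was not tested. It stayed 0 with the replicate number as a block, with DESeq2 size factors, library size only, limma-voom, limma on log2 TPM, only the groups compared, the length and GC correction, the stricter filter (which left out Iyd), and without the 2 mismatched libraries (WT 3 and Kcnip3 KO-5xFAD 2), also with 5xFAD 2 left out besides (an alternative chosen after seeing the data). In 5xFAD against WT, markers with a log2 fold change near 0 (Wfs1, Pcp4, Nptx1) changed sign in some settings without being called. Over the 5 contrasts every marker except Fibcd1 changed sign in some setting. In Kcnip3 KO-5xFAD against Kcnip3 KO, Amigo2 did so in 15 of 24 settings and Bok in 6 of 24. From log2 TPM the median over all genes in 5xFAD against WT was -0.13 and that of the markers 0.33, with 4 markers below 0.

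Over all genes, 304 were called higher and 258 lower in 5xFAD against WT. These counts were 667 and 764 with DESeq2, 1136 and 995 with no filter, 68 and 29 with the length and GC correction, 80 and 158 from log2 TPM, 632 and 602 with the replicate block, and 1 to 939 and 0 to 1178 with 1 library left out. Library size as the only scaling gave 202 higher, and fitting the 2 genotypes alone gave 119 lower. Without the 2 mismatched libraries they were 196 and 13, and 146 and 2 without 5xFAD 2 as well. Kcnip3 KO against WT had 4 and 4, with 9 and 20 in DESeq2, 203 and 121 with no filter, and 10 lower in its own 2 groups. Kcnip3 KO-5xFAD against 5xFAD had 5 and 6, with 16 and 13 in DESeq2 and 200 and 151 with no filter, 3 lower with the stricter filter and 1 lower without the 2 mismatched libraries. Kcnip3 KO-5xFAD against Kcnip3 KO had 0 and 0, with 111 and 24 in DESeq2, 419 and 302 with no filter, and 208 and 1 without the 2 mismatched libraries. The interaction had 0 and 0, with 5 and 1 in DESeq2 and 144 and 128 with no filter, and 1 higher with the replicate block. Correlations of the deviations of same-numbered libraries ran from -0.32 to 0.246 over 18 pairs. For different numbers they ran from -0.376 to 0.294 over 36 pairs, and 4 of 12 libraries correlated best with their own number. The labels do not say whether the numbers pair the libraries, and such correlations cannot exclude it. Depth limits Iyd most, at 9 to 53 counts per library.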
